A study of Mus musculus with 2 samples.

Results

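Spliced suffix models of known genes were examined in long-read RNA sequencing of mouse cerebral cortex. A suffix model is a transcript model whose chain of introns equals the 3′ part of an annotated transcript's chain, so that 1 or more of the 5′ introns of that transcript are not in it. Members were the intron chains of annotated genes that TALON, the program named in the deposited annotation, classed as an incomplete splice match of the suffix kind, with 2 or more exons and at least 3 reads in each library. There were 2719 such chains in 1593 genes, out of 15760 spliced chains of annotated genes with at least 3 reads in each library. The members were chosen by their read counts in both libraries, so those counts are given as a description.

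The 2 libraries formed 1 group. Each was made from 2 µg of total RNA, taken from the cortex of the left hemisphere. The mice were B6CASTF1/J animals, first-generation hybrids of C57BL/6J and CAST/EiJ, at an age of 18 to 20 months, and no treatment or other genotype was named. The labels number them as biological replicates 1 and 2 but give both the same donor entry, and their fields disagree on sex. The tables held 871524 and 839150 reads, of which 774629 and 679147 lay on annotated genes. Reads of cortical cell markers were present, for example 885 and 661 on Slc17a7, the vesicular glutamate transporter of excitatory neurons, while Alb, Apoa1, Folr1 and Aqp1, of liver and choroid plexus, had 0 reads in both libraries. Ttr, a further choroid plexus marker, had 18 and 5. The muscle actin gene Acta1 had 15 and 16 reads, and Myh4, the other skeletal muscle marker, had 1 and 0.

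As background, a messenger RNA is transcribed from its 5′ end, and the first exons carry the cap, the 5′ untranslated region and usually the start codon. In general, a cDNA that holds only the 3′ exons can come from an RNA that started at an internal promoter, from a broken RNA, or from reverse transcription, which runs from the poly(A) tail towards the 5′ end, that stopped early. A table of models and counts does not tell these apart, and their part in the values was not tested.

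The bases around the boundary show what is missing in members with many reads. In each sequence, read 5′ to 3′ from the annotated parent transcript, the last 30 bases that the model lacks are in lower case and the first 30 bases that it holds are in capitals. They are reference sequences (GENCODE M21, mm10), shown for members with the most reads, with the highest share of their gene, or with a difference between the libraries. Only members whose boundary falls within the annotated coding sequence of the parent are shown, so all 10 lie there by choice. Pld3, Atp5f1, Nell2, Psmc2, Ctsa, Tox4 and Soga3 met the same criteria but kept the start codon. In Ncdn the parent used, the one with the most reads of 3 possible, is not coding. These are left out, as is Ptprn.
Pink1: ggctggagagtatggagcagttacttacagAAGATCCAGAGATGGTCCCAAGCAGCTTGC
Ppp2r1a: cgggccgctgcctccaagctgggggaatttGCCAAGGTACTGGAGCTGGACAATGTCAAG
Gpm6a: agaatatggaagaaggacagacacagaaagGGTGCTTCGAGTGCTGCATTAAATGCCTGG
Atp5b: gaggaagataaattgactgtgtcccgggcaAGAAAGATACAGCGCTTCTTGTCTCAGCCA
Syp: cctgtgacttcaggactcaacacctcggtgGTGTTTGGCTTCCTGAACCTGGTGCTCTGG
Ndufa4: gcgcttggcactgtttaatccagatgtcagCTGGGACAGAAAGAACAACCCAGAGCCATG
Luzp2: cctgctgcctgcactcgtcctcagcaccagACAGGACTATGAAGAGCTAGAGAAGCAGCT
Pde1a: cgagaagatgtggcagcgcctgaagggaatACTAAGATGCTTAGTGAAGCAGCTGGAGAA
Kcnip4: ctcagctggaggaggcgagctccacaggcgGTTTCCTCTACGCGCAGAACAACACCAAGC
Snap25: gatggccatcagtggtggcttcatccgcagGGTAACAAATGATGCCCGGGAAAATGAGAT

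In 8 of these the change of case falls at an exon junction, so the capitals open an exon. The capitals of Pink1 open exon 4 of 8 (chr4:138318049-138318078, minus strand), after 257 complete codons. Those of Gpm6a open exon 2 of 7 (chr8:55037328-55037357, plus strand), after 12 codons. Those of Syp open exon 6 of 7 (chrX:7648557-7648586, plus strand), and those of Ndufa4 open exon 3 of 4 (chr6:11905233-11905262, minus strand). In Luzp2 (chr7:55052753-55052782, plus strand), Pde1a (chr2:79927759-79927788, minus strand) and Kcnip4 (chr5:48509731-48509760, minus strand) they open exon 2, after 20, 33 and 20 codons. The last, Snap25, opens exon 7 of 8 (chr2:136777336-136777365, plus strand), after 135 codons. In Ppp2r1a (chr17:20956778-20956807, plus strand) and Atp5b (chr10:128089041-128089070, plus strand) the boundary falls inside an exon, at the annotated start of another transcript.

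Suffix members carried about 4% of the reads on annotated genes. They held 30278 reads in replicate 1, or 3.91% of the reads on annotated genes (95% Wilson interval 3.87% to 3.95%), and 28236 in replicate 2, or 4.16% (4.11% to 4.21%). Every spliced suffix model, whatever its reads, gave 8.07% and 8.76%. Prefix models, which lack 3′ introns instead, gave 0.862% and 1.03%, and 206 prefix chains reached 3 reads in each library. These intervals cover counting error only.

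Most suffix models were seen in few reads. Of 24678 suffix rows in replicate 1 and 24472 in replicate 2, 64.5% and 65.3% had 1 read. Of 38012 suffix chains seen in either library, 11138 were in both. A further 1309 had at least 3 reads in 1 library and no suffix read in the other, where 124 of them had reads under another class. The median member had 6 reads in each library, 557 members had at least 10 in each and 20 had at least 100. At the read minimum, 866 members had exactly 3 reads in the library with fewer, and 1860 chains fell outside with 2. Just inside were chains of Ptgds, the prostaglandin D2 synthase gene, that kept 5, 4 and 3 introns with 5 and 3, 3 and 5, and 5 and 3 reads. Just outside were chains of Aldoa (3 and 2 reads), Snap25 (4 and 2) and Ndrg4 (6 and 2).

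Across members the log2 reads of the libraries correlated with r = 0.83 (2719 chains, a description, since the rule sets a floor in both). Reads differed by no more than 2-fold in 2447 members (90.0%). The plot of reads per chain shows the spread narrowing as reads increase.

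**Figure D1:**
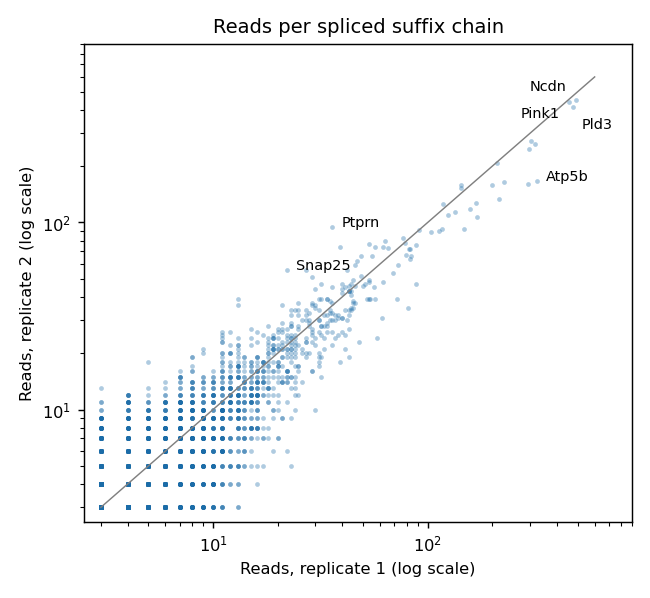
Reads of each spliced suffix chain in replicate 1 (horizontal) and replicate 2 (vertical), both on log scales, with a line of equal reads; each point is 1 of 2719 chains. Ncdn, Pink1 and Pld3 lie at the top with 489 and 449, 456 and 443, and 474 and 413 reads, while Ptprn (36 and 95) and Snap25 (22 and 56) lie above the line.

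Nearly all members belonged to protein-coding genes, 2710 of 2719, and 6 to lincRNA genes. An annotated transcript of the same gene ends in the member's chain for 2631 members. The other 88 end an unannotated model of their gene in both libraries and have no annotated parent. Where several parents were possible (1434 members), the transcript with the most reads was taken as the main parent. The main parent had a median of 10 introns (interquartile range 7 to 17), the member kept 5 of them (2 to 8) and lacked 4 (1 to 9). In length the median member lacked 28.1% of its parent (13.6% to 46.3%), or 764 nt in replicate 1 and 765 nt in replicate 2.

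Members that lacked only the first intron were the most common kind, 705 of 2631 (26.8%). A further 703 lacked 2 to 4 introns, 598 lacked 5 to 9 and 625 lacked 10 or more (23.8%). Median reads were close, at 7 in each library for those that lacked only the first intron and 6 for those without 10 or more. Total reads differed more, at 9284 and 8461 on the 705 members against 4989 and 5068 on the 625. The read minimum sets a floor under these medians, and its part in their closeness was not tested. A single intron was kept by 360 members (13.7%).

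**Figure D2:**
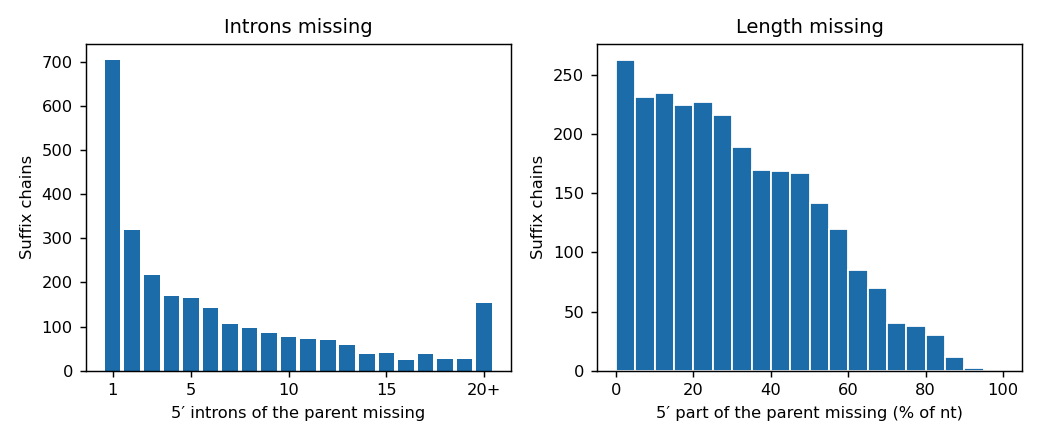
Left, number of suffix chains by how many 5′ introns of the main parent they lack (20+ pools 20 or more). Right, number of chains by the percent of the parent's nucleotides missing at the 5′ end, mean of both libraries. A count of 705 chains lacked 1 intron, and the median length missing was 28.1%.

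The label of a model without its 5′ exons did not hold for all members. In 282 of 2631 (10.7%) the first exon of the model ran back through the preceding intron into an upstream annotated exon in both libraries, so that the intron was held as sequence rather than left out. Of these, 141 lacked a single intron and 47 lacked no base of the parent at all. The deposited 5′ end lay at exactly the acceptor, the 3′ splice site where the first kept exon begins, in 1188 members (45.2%). Whether ends were moved onto annotated coordinates before deposit is not given in the sources used here, so places and matches of ends describe the deposited models and not single molecules. A further 454 (17.3%) began inside that exon, 241 (9.16%) within the preceding intron, and in 466 (17.7%) the place differed between the libraries.

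**Figure D3:**
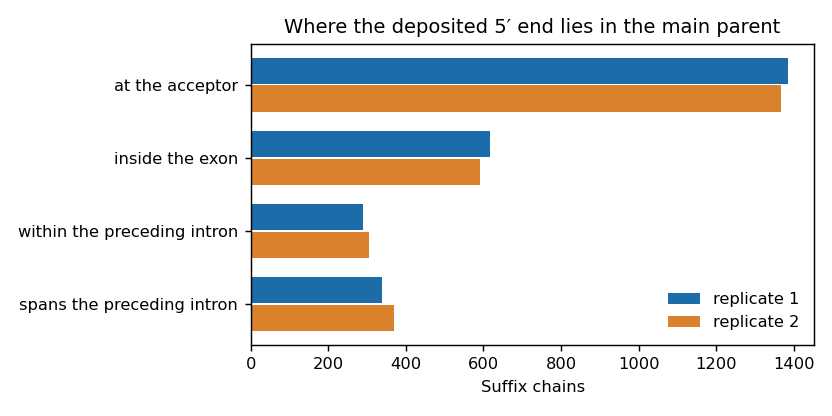
Number of suffix chains (horizontal) by where the deposited 5′ end lies relative to the first kept exon of the main parent, for each library. Ends at the acceptor were the most common, 1384 in replicate 1 and 1367 in replicate 2, and 339 and 369 chains spanned the preceding intron.

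The deposited 5′ ends sat largely on annotated coordinates. Both libraries placed the end on an annotated acceptor of the gene in 1237 members (45.5%) and on an annotated transcript start in 758 (27.9%). It was at neither in both libraries in 284 members (10.4%), and 440 had different classes. The ends of the 2 libraries lay within 50 nt of each other in 2197 members (80.8%), and were identical in 2014. Among the 284 members off annotated coordinates, 195 (68.7%) lay within 50 nt. The share was 98.7% for ends on acceptors and 89.8% for ends on annotated starts, where both libraries use the same annotated coordinates. Each model has 1 deposited end per library, and ends of single reads were not analysed here. The 3′ ends lay within 50 nt in 2389 members (87.9%).

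RefSeq transcript starts fell near a small part of these ends. Of 594 members with an end on an annotated start and a RefSeq start table for the gene (build GRCm38.p6), 111 (18.7%) had a RefSeq start within 50 nt in both libraries. The 111 include members that reach the start of the parent itself, such as Ipo13, which lacked 0 nt of its parent. How many of them do so was not counted. Of 961 members that began at an acceptor 2 did, and of 216 that began elsewhere 0 did.

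The sequence at the ends was also compared with the parents. A pyrimidine followed by a purine across the first base, the letters typical of many transcription starts, was found at 26.0% and 26.7% of ends on annotated starts that lie inside the parent. It was found at 18.8% and 14.6% of ends elsewhere, against 22.0% and 21.9% of all positions of the same parents. At acceptors it was found at 5.43% and 5.70%, where the base before the end is the last base of an exon.

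The missing part was richer in G and C than the part kept in 2208 of 2492 members with at least 50 nt missing (88.6%), with medians of 59.6% and 53.2%. For members that lacked 1 intron the medians were 65.9% and 52.4%. In annotated transcripts with at least 3 reads in each library, split after the first exon, the first exon had a median of 67.1% and the rest 49.0%, and the first exon was higher in 95.4% of 10055. The splits differ, and the difference between the 2 sets was not tested.

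For 2578 members the main parent was coding. The annotated start codon was missing in both libraries in 2101 of them (81.5%), kept in both in 413 (16.0%), and kept in 1 library in 64. Kept means here that the model reaches back to the start codon, also where it holds an intron as sequence after it. Among those without it, a median of 47.1% of the coding sequence was missing (interquartile range 23.9% to 66.8%). Under 10% was missing in 218, and all of it in 17. Members that kept the start codon took a median of 7.02% and 8.14% of their gene's reads, and those without it 3.95% and 4.01%. The 2 groups also differed otherwise. Those with the start codon lacked a median of 1 intron, and 276 of 413 had the 5′ end on an annotated start. Those without it lacked a median of 5 introns, and 416 of 2101 had such an end. The part of these differences in the shares was not tested.

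The member with the most reads was in Ncdn (ENSMUSG00000028833.13, chr4:126743750-126753438), which encodes neurochondrin, a neuronal protein. It kept 4 of 6 introns of Ncdn-203 and had 489 and 449 of the gene's 1560 and 1527 reads, or 31.3% and 29.4%. This parent, the one with the most reads of 3 possible, is typed as a processed transcript in the annotation and had 482 and 524. With 4 further members, named after their values were seen, suffix chains took 41.3% ± 2.3 of the reads of Ncdn (SD, n = 2).

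Pink1 (ENSMUSG00000028756.12, chr4:138313409-138326307), the mitochondrial kinase gene that is mutated in a recessive form of Parkinson disease, had more reads on a suffix chain than on the full transcript. The chain that opens at exon 4 had 456 of 797 reads in replicate 1, or 57.2% (95% Wilson interval 53.8% to 60.6%), and 443 of 714 in replicate 2, or 62.0% (58.4% to 65.5%). The full chain Pink1-201 had 207 and 149. Both libraries placed the end at the same acceptor, and 44.4% of the coding sequence lay before it. Other Pink1 members kept 6, 5 and 1 introns and had 53 and 39, 11 and 12, and 4 and 4 reads, so a single boundary held most of the suffix reads.

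Atp5f1, Atp5b and Ndufa4 were also among the 10 members with the most reads. Atp5f1, which encodes the b subunit of the peripheral stalk of ATP synthase, had 315 of 344 and 263 of 297 reads on a chain with 6 of 7 introns that began 312 nt inside exon 2 at an annotated start. Its parent Atp5f1-201 had 0 reads in both libraries, and the start codon was kept. Atp5b, the catalytic beta subunit, had 322 of 1681 and 167 of 1079 reads on a chain with only the last of 9 introns, and 86.4% of the coding sequence was missing. Ndufa4, a subunit of the respiratory chain, had 292 of 634 and 160 of 433 reads on a chain with the last of 3 introns. In both Atp5b and Ndufa4 the share of the gene was higher in replicate 1, at 19.2% against 15.5% and 46.1% against 37.0%, and neither passed the test between libraries described below.

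The others of the 10 members with the most reads included Syp, Gpm6a, Ppp2r1a and Nell2. Syp, which encodes the synaptic vesicle protein synaptophysin, had 227 of 1267 and 165 of 1008 reads on a chain with the last of 6 introns. Gpm6a, a neuronal membrane glycoprotein gene, had 211 of 1191 and 207 of 1033 on a chain that lacked the first intron, while its parent had 815 and 687. Ppp2r1a, the scaffold subunit of protein phosphatase 2A, had 302 of 863 and 272 of 636 on a chain with 10 of 14 introns. Nell2, a secreted neuronal glycoprotein gene, had 298 of 513 and 248 of 423 on a chain that began at -292 nt relative to exon 2, on an annotated start, and lacked 22 nt of its parent.

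In some genes a suffix chain held more of the reads than all other models together. In Psmc2, an ATPase subunit of the proteasome base, the chain that opens at exon 2 had 104 of 110 reads (94.5%, interval 88.6% to 97.5%) and 89 of 95 (93.7%, 86.9% to 97.1%). The parent Psmc2-201 had 0 reads, and the coding sequence was complete. Pld3, which encodes a lysosomal enzyme, had 474 of 602 and 413 of 549 reads on a chain with 11 of 13 introns and a complete coding sequence. Ctsa, the lysosomal protease cathepsin A, had 116 of 156 and 92 of 117. Its end lay inside exon 2 in replicate 1 and ran through the preceding intron to an annotated start in replicate 2. In Tox4 (56 of 73 and 45 of 61) the libraries also placed the end differently, the other way round.

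Luzp2, Pde1a, Kcnip4 and Soga3 opened at exon 2 in both libraries, and the first 3 lacked the start codon of their parent. Luzp2, a leucine zipper protein gene, had 53 of 66 and 48 of 59 reads on the suffix chain and lacked 5.99% of the coding sequence. Pde1a, a calmodulin-dependent phosphodiesterase gene, had 69 of 93 and 54 of 77 and lacked 6.18%. Kcnip4, which encodes a partner of Kv4 potassium channels, had 40 of 54 and 31 of 51 and lacked 8.13%. Soga3 had 49 of 79 and 66 of 93 and kept the whole coding sequence. The main parents of Luzp2, Pde1a and Kcnip4 had 0 reads in both libraries, and that of Soga3 had 0 and 2.

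**Figure D4:**
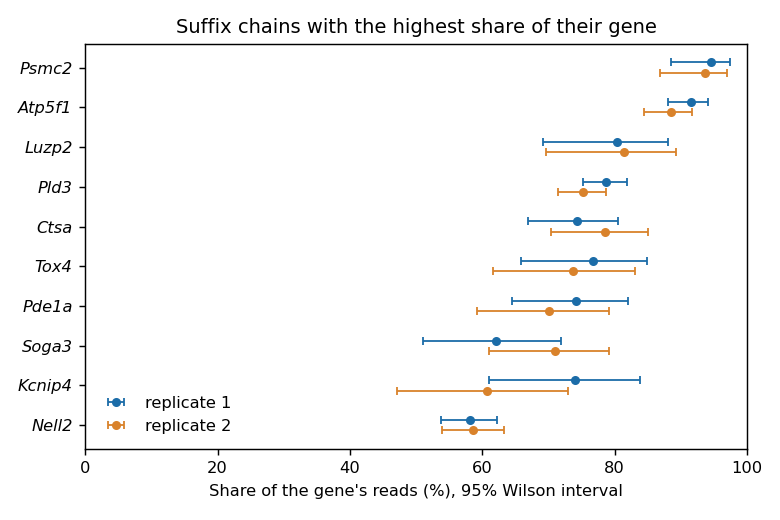
Share of the gene's reads (percent, horizontal) on the 10 suffix chains with the highest share, in genes with at least 50 reads in each library; points are single libraries and bars are 95% Wilson intervals. Psmc2 and Atp5f1 lie near the right edge, and the intervals of the 2 libraries overlap in all 10.

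Across members, 483 of 2631 (18.4%) had more reads than their main parent in both libraries, and the main parent had 0 reads in 220 (8.36%). Cadm1, a synaptic adhesion molecule gene named after its values were seen, had 4 members that all opened at exon 2 and differed in the introns kept further 3′. They had 113 and 90, 79 and 67, 43 and 27, and 18 and 17 reads, together 84.9% ± 1.2 of the gene (SD, n = 2), and their main parents had 0 reads.

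Other genes held a series of nested suffix chains. A single member was found in 1089 genes, 2 to 4 in 416, 5 to 9 in 78 and 10 or more in 10. The series described here were named after their values were seen. Aplp1, which encodes amyloid precursor-like protein 1, had 11 members, which kept between 1 and 15 of 16 introns. The reads ran from 3 to 41 in replicate 1 and from 3 to 45 in replicate 2. The chain with 11 introns had the most in both libraries (41 and 45), followed in replicate 1 by the chain with 15 introns (31 and 20). Together the members had 7.93% ± 1.2 of the gene's reads (SD, n = 2), while the full chain had 1641 of 1855 and 1375 of 1588.

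The amyloid precursor protein gene App had 11 members, with 3 to 17 reads in replicate 1 and 3 to 14 in replicate 2, and no chain stood out. Together they made 12.3% ± 0.84 of its reads. Eef2, the translation elongation factor 2 gene, had 11 members with 45.3% ± 4.1. One of its members, with 12 of 13 introns, began at the annotated start of the parent and held the first intron as sequence (7 reads in each library).

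**Figure D5:**
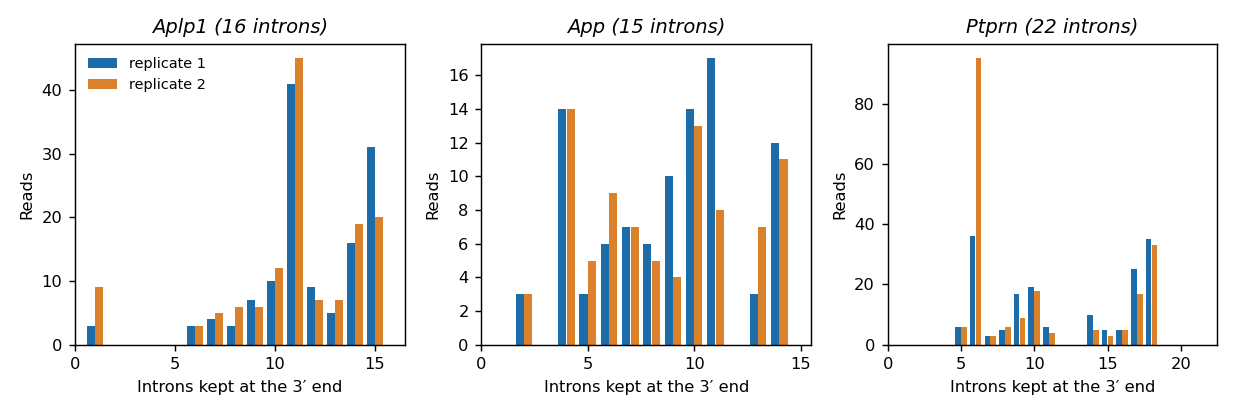
Reads (vertical) of each suffix chain of Aplp1, App and Ptprn by the number of introns it keeps at the 3′ end (horizontal), for each library. Reads are spread over many chains in all 3 genes, and in Ptprn the chain with 6 introns is highest in both libraries, at 36 and 95 reads.

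The members that lacked the most introns came from very large genes. In Hectd4, which encodes a HECT-domain protein, chains with 1 and 2 of 75 introns had 13 and 15, and 13 and 18 reads, and lacked up to 13150 nt. Dync1h1, the heavy chain of cytoplasmic dynein, had a chain with 8 of 76 introns (3 and 3 reads) and one with 14 (3 and 8). In Huwe1, a ubiquitin ligase gene, a chain with 5 of 80 introns had 4 and 5 reads. The full chain of Hectd4 and that of Huwe1 had 0 reads in both libraries, and that of Dync1h1 had 1 and 2.

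Some members with a long sequence before the acceptor ran through the preceding intron. Ndrg4 (16 and 10 reads) and Ipo13 (7 and 6) lacked only the first intron and kept the start codon, and began at -3118 and -2490 nt relative to the acceptor in replicate 1. In both, the start codon lies in the first exon, before the intron that the model holds as sequence. In Ipo13, which encodes a nuclear import receptor, no base of the parent was missing. Pnpla6 (5 and 5 reads) also ran through the preceding intron and began at -3255 nt in both libraries. Klc1, a kinesin light chain gene (9 and 6 reads), instead began within the preceding intron, at -3548 and -3254 nt. In all, 558 members began upstream of the acceptor in both libraries, and 459 of these (82.3%) began on an annotated start.

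Genes known for internal promoters or for short forms without the 5′ exons were looked at as a list. Of 18 with at least 20 reads in each library, 10 had a member (55.6%), against 1416 of 6116 genes overall (23.2%). In the lists of gene functions given below, 57.1% (chaperones) to 100% (glycolysis) of genes at that depth had a member. The median share of a gene's reads on members was 0.963% and 0.978% for the promoter list, lower than for each of those function lists. They held 30 members, and none was called between the libraries. Rtn1, a reticulon gene with a long and a short form, had 83 and 72 reads on a chain with 6 of 8 introns of Rtn1-202, and 4 further members with 5 to 16 reads. The shorter transcript Rtn1-201 is itself annotated and had 852 and 718, so it is no suffix model. Ndrg2, a gene active in astrocytes, had 7 members, the largest with 46 and 46 reads and its end at an annotated start within the first intron. Gnas, which has several promoters, had 7 members with 3 to 12 reads. Mbp had a single member with 3 and 4 reads of 1154 and 862.

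Gene lists for 5 functions were compared with the 23.2% of all genes with at least 20 reads in each library that had a member. Members were found in 14 of 14 glycolysis genes, 16 of 19 cytoskeleton and motor genes, 13 of 19 presynaptic genes, 10 of 17 postsynaptic genes and 8 of 14 chaperone genes with at least 20 reads in each library. The median share of a gene's reads was 7.76% and 7.68% for presynaptic genes, 7.14% and 7.50% for the cytoskeleton, 4.29% and 3.61% for postsynaptic genes, 2.74% and 3.48% for glycolysis and 2.54% and 3.23% for chaperones, with genes without a member counted as 0. Over all 6116 genes the median was 0 in both libraries. Of the cell type markers at that depth, 3 of 4 had a member for excitatory neurons, 1 of 3 for inhibitory neurons, 2 of 5 for astrocytes, 2 of 4 for oligodendrocytes, 2 of 4 for microglia and 0 of 1 for endothelium.

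How often a gene had a member moved with its reads. The rule itself asks for at least 3 reads in each library, and its part in this was not tested. Of genes with a spliced annotated transcript, 11.4% had a member at 20 to 49 reads, 22.8% at 50 to 99, 42.5% at 100 to 299 and 75.9% at 300 or more. From the lowest to the highest class, the mean share of reads on members rose from 2.35% and 2.41% to 6.51% and 6.80%. The part that read number plays in the counts of the lists was not tested. By transcript length the share of genes with a member was 19.3% up to 1000 nt, 22.2% from there to 2000, 24.0% to 3000, 24.1% to 4000, 26.6% to 6000 and 23.0% above. Gene reads also differed between these lengths, with medians of 118, 131, 120, 105, 99 and 84 in the same order. These medians are on another scale than the read classes above, so they compare the lengths only with each other. Length at equal read number was not tested. In the 1416 genes with a member, members took a median of 9.12% of the gene's reads in replicate 1 (interquartile range 4.06% to 18.7%) and 9.29% in replicate 2 (4.66% to 19.0%). In 45 genes they took over 50% in both.

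The libraries were compared by the share of each chain in its gene, with Fisher's exact test (two-sided) and Benjamini-Hochberg adjustment over 98583 spliced chains of all classes. Over all chains 7 were called at an adjusted p under 0.05, or 0.00710%, and 4 of them (0.00406%) were higher in replicate 2. Of 2535 members tested 2 were called, both higher in replicate 2. Nothing is read from the 2 shares side by side, because members needed reads in both libraries. At an unadjusted p under 0.05 by the same test there were 72 of the 2535 members and 957 of the 98583 chains of all classes. The test compares these 2 libraries as sequenced, and spread between animals is not part of it.

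The called chain of Ptprn, which encodes a protein of secretory granule membranes, kept 6 of 22 introns and had 36 of 410 reads in replicate 1, or 8.78% (95% Wilson interval 6.41% to 11.9%). In replicate 2 it had 95 of 373, or 25.5% (21.3% to 30.1%), and Fisher's exact test gave an adjusted p of 2.11e-05. Its model began at -299 nt relative to the acceptor, at the acceptor of the exon upstream, and so held the intron between them as sequence. The chain in which that intron is removed, with 7 introns, had 3 and 3 reads. The other Ptprn members had 3 to 35 reads in replicate 1 and 3 to 33 in replicate 2. The full chain had 140 and 74.

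The called chain of Snap25, which encodes a SNARE protein of synaptic vesicle fusion, kept the last of 7 introns and opened at exon 7. It had 22 of 2471 reads, or 0.890% (0.589% to 1.34%), and 56 of 2017, or 2.78% (2.14% to 3.59%), with an adjusted p of 0.0259 by Fisher's exact test. The other 4 Snap25 members had 40 and 42, 44 and 34, 3 and 3, and 12 and 20 reads, and none was called. The full chain Snap25-201 had 1993 and 1578.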

How the data were processed

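The authors deposited, for each of the 2 libraries, a table with a whole read count for every transcript model, and the exons of those models; per the file headers each table holds 1 library. TALON is named in the annotation, with GENCODE M21 on mm10. The aligner, versions, upstream filters and read orientation were not given in the sources used here. Models were matched between libraries by chromosome, strand, gene and intron chain. Spike-in reads (13617 and 11083) and unannotated loci were left out of totals. Gene reads are the sums over all models of a gene.

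Parents are annotated transcripts whose chain ends in the member's. Shares carry 95% Wilson intervals. Fisher's exact test ran on chains of genes with at least 20 reads in each library, and was tested on simulated data (Python 3.11.15, numpy 2.4.6, scipy 1.17.1, pandas 2.3.3). With 2 libraries in 1 group, no fit across samples was made. Each p-value sets the difference between these 2 libraries against counting error alone and estimates no spread.

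Genes were named by most reads (10), highest share in genes with at least 50 reads in each library (10), most missing introns and sequence (5 each), longest extension (5), the test, the read minimum and the promoter list. Members, lists and the rule were chosen with earlier results of these data known. Some of the genes that the rule takes are not reported here. Coordinates are 1-based.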

Additional observations from a re-analysis of the deposited data

Results flagged for a closer look

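Spliced suffix models were also present at unannotated antisense and intergenic loci, which the comparisons above leave out. They held 141 reads on 37 models in replicate 1 and 252 reads on 62 models in replicate 2, and were picked out because they lie in data outside the main measurement. No control sample measures a background for them.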

How the results depend on the processing

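The number of members followed the read minimum: 1415 at 5 reads in each library, 557 at 10 and 11138 at 1. With a single library it was 4558 to 4768. Their mean share of annotated-gene reads was 4.03%, and 4.64% of spliced reads, 6.02% at a minimum of 1 read and 2.35% at 10. The median number of introns missing was 3 instead of 4 with the parent that lacks fewest, and also 3 at 10 reads. Ends within 50 nt numbered 466 at 10 reads. Ends upstream of the acceptor numbered 131 at 10 reads. After seeing the data, 2 alternatives were added: off annotated boundaries 195 ends lay within 50 nt, and without ends on annotated starts 99 lay upstream. Fewer members enter each of these. The median share of gene reads was 9.57% for the mean of both libraries, 9.12% to 9.29% for single libraries, 10.6% of spliced reads, 18.3% of reads on parents and members, and 6.86% in genes with at least 50 reads. Both called chains were called under all 4 alternatives of the test, with adjusted p by Fisher's exact test from 2.7e-06 to 6.74e-05 for Ptprn and from 0.00398 to 0.0306 for Snap25. Leaving out a library leaves no comparison. No paired analysis was possible because there is 1 group. A median of 6 reads per member limits single-member statements.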
